A study of Mus musculus with 48 samples.

Results

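The comparison set mice with activated Notch2 against mice with floxed Notch2, both under the Lgr5 driver, in a mouse model of Barrett oesophagus. All arrays with the genotype pL2_Lgr5_Notch2IC_LacZ (3) and all with the genotype pL2_Lgr5_Notch2fl_fl (3) were taken, 6 of the 48 arrays of the series. Each array measured total RNA of whole tissue from the junction of the squamous and columnar lining at the cardia, the entrance of the stomach. The mice of all 6 arrays carried pL2, the transgene for interleukin-1 beta that gives rise to the Barrett-like lesion. They ate chow in the same facility and had received tamoxifen, the drug that switches on an inducible recombinase. The Notch2IC genotype carries the Notch2 intracellular domain, the part that acts in the nucleus without a ligand, with LacZ in its name, and the floxed genotype carries a Notch2 gene that a recombinase can inactivate. For the 3 Notch2IC arrays tamoxifen was given at 4 months of age, and the endpoint was at 10, 11 and 10 months. For the 3 floxed arrays it was given at 4, 5 and 4 months, and the endpoint was at 10, 11 and 11 months. The series' design text places the change of Notch signalling in intestinal Lgr5-positive stem cells. The labels do not name the recombinase or the sex of the mice, and do not say that each array is a separate mouse. Both groups carry an altered Notch2 gene, so each difference is between 2 altered states. The Dclk driver, which the design text assigns to tuft cells after their last division, gave a second comparison of the same kind with 6 other arrays. Of these, 3 were pL2_Dclk_Notch2IC_LacZ (tamoxifen at 6, 6 and 5 months, endpoint at 12, 12 and 11 months). The other 3 were pL2_Dclk_Notch2fl_fl (tamoxifen at 6, 5 and 5 months, endpoint at 12, 11 and 10 months). The genotype pL2_Lgr5_Notch1fl_fl (3 arrays, tamoxifen at 4, 4 and 3 months, endpoint at 11, 10 and 9 months) served as another floxed group under the Lgr5 driver.

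Notch receptors are cut after a ligand of the Delta-like or Jagged family on a neighbouring cell binds them, and the released intracellular domain joins the DNA-binding protein Rbpj in the nucleus to switch on targets such as the Hes and Hey repressors. In the intestine Notch signalling keeps stem cells dividing and holds back the secretory fate, and Lgr5 marks the dividing stem cells at the crypt base and in gastric glands. Tissue taken whole dilutes whatever happens in such rare cells, and in whole tissue fewer cells of a type and less RNA per cell cannot be told apart.

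The labelled tissue showed its defining markers in all 6 arrays. Values are log2 signals, so a difference of 1 is a 2-fold change. The squamous keratin Krt13 lay between 10.18 and 11.93, the gastric pit mucin Muc5ac between 11.14 and 12.36 and the acid pump subunit Atp4a between 10.93 and 12.26. Notch2IC replicate 3 and Notch2fl/fl replicate 2 stood apart in intestinal transcripts. The enterocyte list, 16 genes of absorptive cells, had mean signals of 6.47, 6.66 and 10.35 in the Notch2IC arrays and 6.63, 10.00 and 7.75 in the floxed arrays, and 10.35 was the highest of all 48 arrays. The goblet cell mucin Muc2 read 11.48 and 11.55 in those 2 arrays and 4.64 to 8.03 in the other 4. Xist, the transcript of the inactive X chromosome, was low in 1 array of each group (5.22 in Notch2IC replicate 3 and 4.18 in Notch2fl/fl replicate 1) and lay between 11.56 and 11.95 in the other 4. Pearson correlations over the 22180 gene symbols were 0.940 to 0.969 between Notch2IC arrays, 0.965 to 0.977 between floxed arrays and 0.952 to 0.976 across the groups, so the groups did not separate as wholes. Smooth muscle genes varied as well: their list mean was 6.21, 6.87 and 8.72 in the Notch2IC arrays and 7.71, 8.47 and 8.25 in the floxed arrays.

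**Figure D1:**
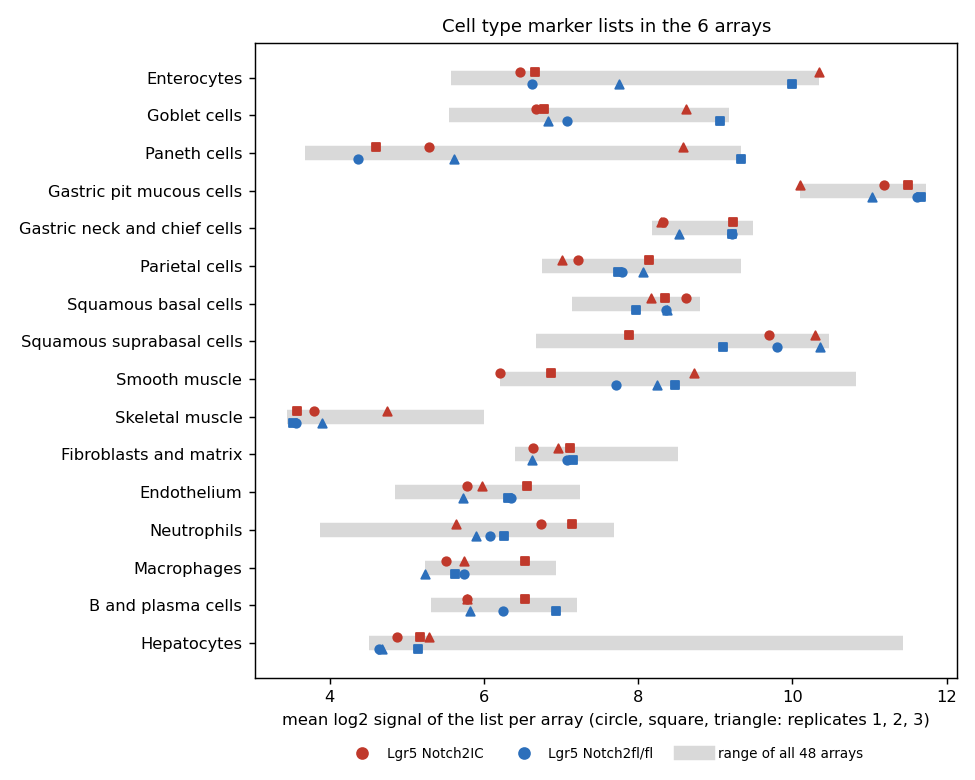
Mean log2 signal of 16 cell type marker lists (horizontal axis) in each of the 6 arrays, with Notch2IC in red, Notch2fl/fl in blue, the replicates as circle, square and triangle, and the range of all 48 arrays as a grey bar. The enterocyte means of Notch2IC replicate 3 (10.35) and Notch2fl/fl replicate 2 (10.00) lie far to the right of the other 4 arrays, which lie between 6.47 and 7.75.

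In all, 11 genes passed the test between the groups. Of these, 7 were higher with Notch2IC, among them the lipoxygenases Alox15 and Alox12e, the potassium channel Kcnh5 and the chloride channel accessory protein Clca3a2. The 4 lower ones included Tmod4 and Tpm3, which are named for actin filament proteins. The Tpm3 call rests on a probe set that may read another copy, as given below. The differences ran from 1.83-fold for Gpn2 to 12.6-fold for Alox15, and 9 of the 11 were at least 2-fold. The 11 made up 0.0722% of the 15242 genes tested, with 7 higher (0.0459%) and 4 lower (0.0262%), by limma's moderated test on all 48 arrays with Benjamini-Hochberg adjusted p below 0.05. At an unadjusted p below 0.05 there were 1084 genes (7.11%), 508 higher and 576 lower. In all 11 the 3 Notch2IC arrays and the 3 floxed arrays did not overlap. All 3 Notch2IC arrays lay above all 3 floxed arrays for 594 genes (3.9%) and below them for 708 (4.65%). The calls draw on the spread shared by all 16 groups: with the 6 arrays fitted alone, 0 genes passed and 533 had an unadjusted p below 0.05. The count also rested on single arrays, being 7 without Notch2IC replicate 1, 6 without replicate 2, 45 without replicate 3, 6 without floxed replicate 1 and 5 without floxed replicate 3.

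**Figure D2:**
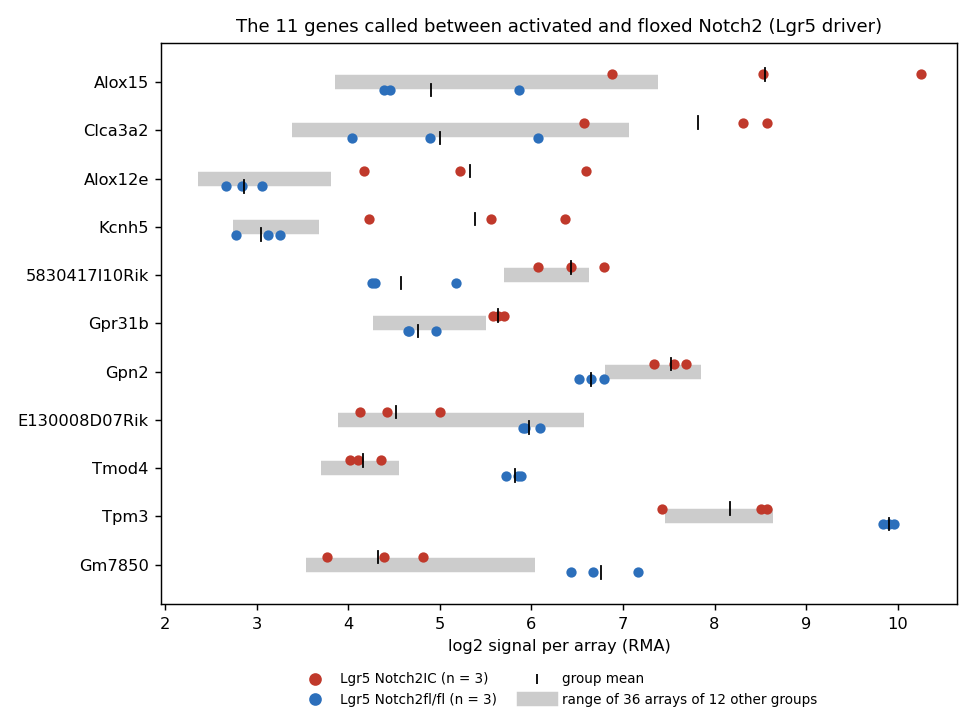
Log2 signal (horizontal axis) of the 11 genes that passed, in the 3 Lgr5 Notch2IC arrays (red) and the 3 Lgr5 Notch2fl/fl arrays (blue), with black ticks for group means and a grey bar for the range of the 36 arrays of the 12 groups without altered Notch2. For Tmod4, Tpm3 and 5830417I10Rik the red points fall in or near the grey range and the blue points outside it, and for Alox12e and Kcnh5 the blue points fall in the range and the red points outside it.

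All of the 11 genes except E130008D07Rik fell into sets by which group differed from the rest of the series. For Tmod4, Tpm3, 5830417I10Rik, Gm7850 and Gpn2 all 3 floxed arrays lay outside the range of the 36 arrays that have neither form of altered Notch2. Tmod4, tropomodulin 4, caps the slow-growing end of actin filaments in striated muscle. Its log2 signals were 4.02, 4.11 and 4.36 with Notch2IC and 5.72, 5.85 and 5.88 in the floxed arrays. The means were 4.16 ± 0.18 and 5.82 ± 0.08 (SD, n = 3 each), so Tmod4 fell by 1.66 on the log2 scale with a standard error of 0.15 (limma, adjusted p = 8.04e-09). The 36 other arrays lay between 3.70 and 4.55, a range that takes in the Notch2IC arrays and not the floxed ones. Under the Dclk driver the values were 3.88, 4.15 and 4.12 with Notch2IC and 4.52, 4.85 and 5.19 with floxed Notch2, so floxed arrays were again the higher. Tmod4 passed there as well, with a difference of -0.80 (limma, adjusted p = 0.0153). Of the alternative fits that tested Tmod4, it missed the threshold only with the 6 arrays alone (limma, adjusted p = 0.531). Its highest signal in the series was 5.88, so a stricter filter at log2 6 left it out. Skeletal muscle markers did not run with it: the list mean was 3.79, 3.58 and 4.73 with Notch2IC and 3.56, 3.52 and 3.90 in the floxed arrays.

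Tpm3 encodes a tropomyosin, a rod-shaped protein that lies along actin filaments. Its signals were 8.51, 8.58 and 7.42 with Notch2IC and 9.96, 9.84 and 9.90 in the floxed arrays, a difference of -1.73 with a standard error of 0.24 (limma, adjusted p = 6.99e-05). All 6 arrays with floxed Notch2, of both drivers, lay between 9.54 and 9.96, and the other 42 arrays of the series lay between 7.42 and 8.64. The Dclk difference was -1.29 (limma, adjusted p = 0.0150). The array holds 2 probe sets for Tpm3, and they disagree. The second lay at 5.38 to 5.68 with Notch2IC and 5.49 to 5.93 in the floxed arrays, and differed by -0.15. Of the 20 placed probe sets numbered next to the second entry, 20 belong to genes of the Tpm3 chromosome, while 0 of the 18 placed next to the entry used do. Of those 18, 17 belong to genes of the same other chromosome. RefSeq lists 3 Tpm3-related pseudogenes, and which sequence the entry reads was not tested.

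5830417I10Rik is a transcribed pseudogene in RefSeq. It had signals of 6.07, 6.43 and 6.80 with Notch2IC and 5.18, 4.26 and 4.30 in the floxed arrays. It was 3.62-fold higher with Notch2IC (log2 difference 1.86, limma, adjusted p = 6.99e-05), and the 36 other arrays lay between 5.70 and 6.63, a range that took in 2 of the 3 Notch2IC arrays, lay just below the highest and lay above every floxed array. The Dclk difference was 1.46 (limma, adjusted p = 0.0100). Gm7850, a predicted gene, read 4.81, 3.77 and 4.39 with Notch2IC and 6.43, 6.67 and 7.17 in the floxed arrays, and fell by 2.43 (limma, adjusted p = 0.00888). E130008D07Rik, an uncharacterised transcript, fell by 1.46 (limma, adjusted p = 0.0269) from 5.93, 6.09 and 5.90 in the floxed arrays to 4.12, 4.42 and 5.00. It belongs to none of the sets, as the range of the 36 other arrays, 3.88 to 6.58, took in both groups. Among those, the Lgr5 Notch1fl/fl arrays read 4.68, 4.87 and 4.92. Gm7850 lost its call without Notch2IC replicate 2 or floxed replicate 3 and E130008D07Rik whenever an array other than Notch2IC replicate 3 was left out, while 5830417I10Rik, Tpm3 and Tmod4 kept theirs without each of the 6 arrays in turn. Tpm3 and 5830417I10Rik did not pass with the 18 arrays of the Notch lines alone or with age at tamoxifen as a covariate, nor 5830417I10Rik with array weights, and Tmod4 was the 1 gene that passed in the fits with the 18 arrays and with age at tamoxifen. The naming rule leaves out predicted and RIKEN-named genes, and 5830417I10Rik, Gm7850 and E130008D07Rik are given to complete the 11.

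Several of these genes lie on the chromosome of Notch2 itself. On the chromosome that carries Notch2, 398 tested genes lie within 500 genes of it in RefSeq order. Of these, 3 passed under the Lgr5 driver (0.754%) and 4 under the Dclk driver. The 3 are Tmod4, Tpm3 and 5830417I10Rik, at -167, -359 and -432 genes from Notch2, Tpm3 with the doubt about its probe set. In the rest of that chromosome 1 of 378 tested genes passed (0.265%), Clca3a2. On the other chromosomes 7 of 14446 passed (0.0485%), and 1 did under the Dclk driver. The window was chosen after the values were seen, and the part of DNA linked to the altered Notch2 gene in these values was not tested. Between Tpm3 and Tmod4 lies the cluster of cornified envelope genes, with Lor at -2.19 (adjusted p = 0.664), a run of low points that did not pass under the Lgr5 driver. Under the Dclk driver 1 member, the small proline-rich envelope gene Sprr4, passed at -2.20 (limma, adjusted p = 0.0150), and it is among the 4 Dclk calls of the window.

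**Figure D3:**
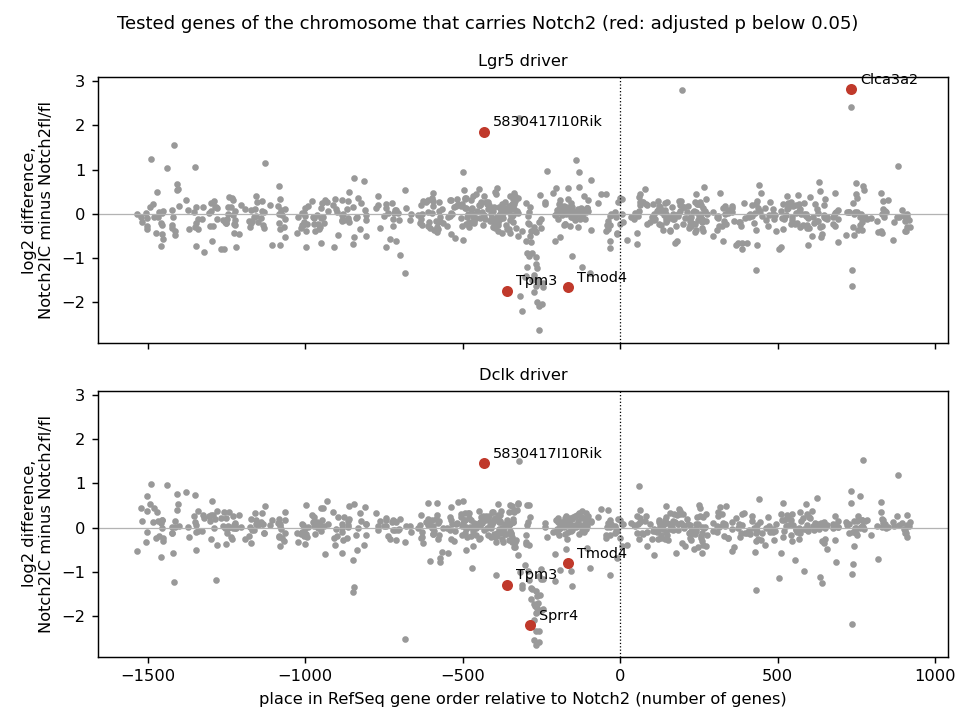
Log2 difference, Notch2IC minus Notch2fl/fl (vertical axis), for the tested genes of the chromosome that carries Notch2, placed by gene order relative to Notch2 (horizontal axis, number of genes), for the Lgr5 driver above and the Dclk driver below, with genes of adjusted p below 0.05 in red. Tmod4 and Tpm3 lie below 0 and 5830417I10Rik above it in both panels; Tpm3 is drawn at its gene's place although its probe set may read another copy.

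The upstream DNA of Tmod4, the gene with the smallest p, is printed here beside that of Alox12e, which was higher with Notch2IC, and of the listed Notch target Hes5. Capitals mark TGGGAA, the core letters that Rbpj binds, searched on both strands over the 250 bases before the start site, where TTCCCA is the same motif on the other strand. The sequences come from RefSeq, build GRCm38.p6, and run 5′ to 3′ on the gene's strand. Tmod4 is at chr3:95124264-95124513 on the plus strand, Alox12e at chr11:70322531-70322780 on the minus strand and Hes5 at chr4:154960673-154960922 on the plus strand.
Tmod4: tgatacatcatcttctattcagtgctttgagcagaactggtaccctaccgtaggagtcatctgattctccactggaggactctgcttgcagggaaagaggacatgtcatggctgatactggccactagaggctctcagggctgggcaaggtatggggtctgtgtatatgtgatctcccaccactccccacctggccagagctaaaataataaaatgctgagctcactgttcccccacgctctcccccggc
Alox12e: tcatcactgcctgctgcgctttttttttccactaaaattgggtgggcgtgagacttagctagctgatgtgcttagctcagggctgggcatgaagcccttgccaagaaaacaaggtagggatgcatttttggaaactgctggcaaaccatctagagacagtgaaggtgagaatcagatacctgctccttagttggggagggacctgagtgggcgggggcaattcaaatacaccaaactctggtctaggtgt
Hes5: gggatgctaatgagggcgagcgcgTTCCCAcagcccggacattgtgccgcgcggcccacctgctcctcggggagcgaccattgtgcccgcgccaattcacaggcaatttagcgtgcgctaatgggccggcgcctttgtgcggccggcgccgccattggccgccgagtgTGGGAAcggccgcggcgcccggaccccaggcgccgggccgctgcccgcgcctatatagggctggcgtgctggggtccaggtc
The first 2 windows hold none of these letters, and the Hes5 window holds them at 226 and 82 bases before the start. Of all 32851 RefSeq windows of this length, 21.6% hold the motif. Of the 11 genes that passed, 7 had a window and 1 of them, Gpn2, held it, 240 bases before its start. Of the 15 tested genes of the Notch target list, 8 had a window and 4 held it (Hes5, Hes7, Hey2 and Cd44). A match is a match of letters and no evidence of binding.

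In the second set, Alox15, Alox12e, Kcnh5, Clca3a2 and Gpr31b, at least 2 of the 3 Notch2IC arrays lay above all 36 of those other arrays. Alox15 and Alox12e encode lipoxygenases, enzymes that add oxygen to arachidonic acid and related fatty acids, Alox12e being the epidermal type. They are direct neighbours in gene order. Alox15 signals were 8.53, 10.26 and 6.88 with Notch2IC and 5.86, 4.45 and 4.39 in the floxed arrays, means of 8.56 ± 1.69 and 4.90 ± 0.83 (SD, n = 3 each). The difference was 3.66 with a standard error of 0.69 (limma, adjusted p = 0.0132). The lowest Notch2IC array overlapped the 36 other arrays, which reached 7.38. Alox12e signals were 5.22, 6.60 and 4.18 with Notch2IC and 3.06, 2.67 and 2.84 in the floxed arrays, with SDs of 1.22 and 0.20 (n = 3 each). Its standard error is pooled over all 16 groups, which apart from Dclk Notch2IC varied less than these Notch2IC arrays. The difference was 2.47 with a standard error of 0.41 (limma, adjusted p = 0.00260), and the 36 other arrays lay between 2.35 and 3.81, below every Notch2IC array. Array medians were 4.03 or more, so Alox12e entered the tests only through Notch2IC arrays. The place of the other arrays below them was partly fixed by that filter. Without Notch2IC replicate 2, the array with the highest values, neither gene passed, and Alox15 did not pass without Notch2IC replicate 1 or floxed replicate 2 or 3 either. Alox12, another lipoxygenase 4 genes from Alox12e, read 8.35, 7.87 and 8.77 against 7.71, 6.92 and 8.79 and differed by 0.52 (adjusted p = 0.833).

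Kcnh5, a voltage-gated potassium channel known from neurons, had signals of 5.56, 6.37 and 4.23 with Notch2IC and 3.12, 2.77 and 3.26 in the floxed arrays. The SDs were 1.08 and 0.25 (n = 3 each), beside a standard error pooled over all 16 groups. The difference was 2.34 with a standard error of 0.47 (limma, adjusted p = 0.0269), and the 36 other arrays stayed between 2.74 and 3.68. Kcnh5 too entered the tests only through Notch2IC arrays, as all floxed and other arrays lay below the lowest array median of 4.03. Clca3a2 belongs to the family of accessory proteins of calcium-activated chloride channels. Its signals were 8.31, 8.57 and 6.58 with Notch2IC and 4.89, 6.08 and 4.04 in the floxed arrays, a difference of 2.82 with a standard error of 0.57 (limma, adjusted p = 0.0269). In Alox15, Alox12e, Kcnh5 and Clca3a2, though not in Gpr31b, Notch2IC replicate 3 was the lowest of its group, and it is the array with the high intestinal markers. Kcnh5 lost its call without either of Notch2IC replicates 1 and 2 or without any 1 floxed array, and Clca3a2 without Notch2IC replicate 1 or 2 or without floxed replicate 1 or 3.

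Gp2, Gabrp, Sv2c and Pglyrp4 lay just outside the threshold with the same arrays high; they were chosen after their values were seen. Gp2, a membrane glycoprotein of zymogen granules and of M cells, read 11.68, 12.22 and 10.36 with Notch2IC and 8.49, 9.19 and 5.11 in the floxed arrays (difference 3.83, adjusted p = 0.0677). Gabrp, the pi subunit of the GABA-A receptor found in epithelia, read 10.03, 10.58 and 8.63 against 7.13, 6.66 and 6.16 (difference 3.10, adjusted p = 0.0801). Both had all Notch2IC arrays above all floxed arrays. The synaptic vesicle protein Sv2c differed by 1.85 (adjusted p = 0.0716) and Pglyrp4, a peptidoglycan recognition protein that binds bacterial walls, by 2.16 (adjusted p = 0.111).

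Gpn2, a small GTPase of the GPN-loop family, and Gpr31b, a G protein-coupled receptor whose human counterpart binds a product of 12-lipoxygenase, had the smallest differences of the higher genes, and Gpn2 belongs to the first set and Gpr31b to the second. Gpn2 signals were 7.69, 7.34 and 7.56 with Notch2IC and 6.52, 6.65 and 6.80 in the floxed arrays, a difference of 0.87 with a standard error of 0.16 (limma, adjusted p = 0.00888). The floxed Gpn2 arrays lay below all 36 other arrays, which ran from 6.81 to 7.85 and took in the Notch2IC arrays. Gpr31b signals were 5.58, 5.64 and 5.70 against 4.66, 4.96 and 4.65, a difference of 0.88 with a standard error of 0.17 (limma, adjusted p = 0.0140). Gpn2 lost its call without Notch2IC replicate 1 or floxed replicate 1, and Gpr31b without Notch2IC replicate 1 or 2 or floxed replicate 1 or 3. Replicates of these genes were close and the groups apart, with changes under 2-fold. Among genes that read lower, Nudt13, a nudix hydrolase (-0.80, adjusted p = 0.0603), the corneal keratin Krt12 (-1.17, adjusted p = 0.0983) and Guf1, a GTPase of mitochondrial translation (-0.69, adjusted p = 0.142), came next and did not pass.

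The Dclk arrays, which come from mice of other genotypes, gave a second reading of the 11 genes. In these arrays 5 genes passed (0.0328%), of which 3, Tmod4, Tpm3 and 5830417I10Rik, were among the 11. Of the 11, 10 had the same sign under both drivers, against 47.5% of all tested genes. In 7 this came with an unadjusted Dclk p below 0.05, against 2.76% of all genes, and in 5 with Dclk arrays that did not overlap, against 6.27%. Alox12e and Kcnh5, both among the 10 and the 7, entered the tests only through Notch2IC arrays. For Alox12e the arrays needed to enter included Dclk Notch2IC replicate 3, so its Dclk rise was in part a condition of being tested. The place of these genes in both counts may thus be partly fixed by the filter, and the shares of all genes are no fair measure for them. For Alox12e the Dclk Notch2IC arrays read 2.63, 3.90 and 5.21 and the Dclk floxed arrays 2.62, 2.65 and 2.50 (difference 1.32, adjusted p = 0.772). For Kcnh5 they read 2.91, 4.25 and 6.70 against 3.34, 3.00 and 3.49 (difference 1.34, adjusted p = 0.903). For Alox15 they read 5.41, 6.50 and 8.76 against 5.01, 4.78 and 4.69 (difference 2.06, adjusted p = 0.841). In all 3 genes Dclk Notch2IC replicate 1 lay near the floxed arrays and replicate 3 was the highest. Gpr31b was the exception in sign, at -0.04.

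The driver difference, the Lgr5 change minus the Dclk change, passed for 0 genes (0%) by limma's moderated test, with 1009 genes at an unadjusted p below 0.05 and a smallest adjusted p of 0.688. That smallest value was shared by, among others, Gpr31b, with a driver difference of 0.92 and a standard error of 0.24, Gpn2, with 0.77 and 0.22, and Tmod4, with -0.85 and 0.21. The floxed Tmod4 arrays of the Lgr5 driver, at 5.72 to 5.88, lay above those of the Dclk driver, at 4.52 to 5.19. No difference between the drivers in these genes was therefore shown.

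Set against the Lgr5 Notch1fl/fl arrays, the Notch2IC arrays differed in 14 genes (0.0919%), 11 higher and 3 lower. The count rested on single arrays, being 1 without Notch2IC replicate 1, 536 without Notch2IC replicate 2, 24 without Notch2IC replicate 3, 229 without Notch1fl/fl replicate 1, 2 without Notch1fl/fl replicate 2 and 287 without Notch1fl/fl replicate 3, and it was 0 in several other fits. Notch1fl/fl replicate 2 had a hepatocyte list mean of 11.43 and replicate 3 an enterocyte list mean of 9.90, both high. This comparison shares the Notch2IC arrays with the main one, so the values are given side by side only. The difference was 1.99 for Alox12e, 2.04 for Alox15, 1.91 for Kcnh5 and 2.51 for Clca3a2. It was -0.23 for Tmod4, 0.07 for Tpm3, 0.40 for 5830417I10Rik and 0.12 for Gm7850. The first 4 genes read higher with Notch2IC against either floxed gene, and the last 4 differed by much less against floxed Notch1. Only Alox12e among them passed against floxed Notch1 (limma, adjusted p = 0.0446). As Alox12e and Kcnh5 entered the tests only through Notch2IC arrays, the low place of their Notch1fl/fl arrays was partly fixed by the filter. The Alox12e call therefore does not set it apart from the other genes. Alox15, Kcnh5 and Clca3a2 did not (limma, adjusted p = 0.184, 0.0906 and 0.0728). The Notch1fl/fl arrays read 3.01, 3.39 and 3.62 for Alox12e and 4.47, 4.55 and 4.16 for Tmod4.

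No Notch receptor, ligand or listed target passed. Notch2 read 9.44, 8.60 and 9.09 with Notch2IC and 8.58, 8.24 and 9.25 in the floxed arrays, overlapping groups with a difference of 0.35 and a standard error of 0.22 (limma, adjusted p = 0.770). Where in the gene the probe set lies is not given in the sources used here, so this value checks neither the deletion nor the activated form. The differences were 0.16 for Notch1, 0.36 for Notch3 and -0.25 for Notch4, all within overlapping groups. Of the ligands, Dll4, which acts on neighbouring cells in vessels and crypts, differed by 0.65 (adjusted p = 0.596), Dll1 by 0.50, Jag2 by 0.33 and Jag1 by -0.01. Rbpj, the DNA-binding partner, differed by 0.09. The genes whose pattern over the 16 group means was most like that of Notch2 were Tenm4 (Pearson r = 0.93), Plxna1 (0.91), Ptprf (0.91), Rab24 (0.90) and L1cam (0.90).

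Of the 15 tested Notch targets, 10 read higher and 5 lower with Notch2IC. Their median difference was 0.25, beside -0.01 for all tested genes and 0.12 for the same list under the Dclk driver. Hey1, a transcriptional repressor switched on by Notch, read 6.39, 6.68 and 5.73 with Notch2IC and 5.08, 5.43 and 4.57 in the floxed arrays (difference 1.24, standard error 0.33, limma, adjusted p = 0.260). Ccnd1, the cyclin that drives entry into the cell cycle, read 9.46, 9.34 and 8.56 against 8.27, 8.17 and 7.95 (difference 0.99, standard error 0.24, limma, adjusted p = 0.164). Dtx1, a ubiquitin ligase that binds Notch, read 5.89, 5.97 and 5.84 against 4.89, 5.31 and 5.26 (difference 0.75, adjusted p = 0.689). These were the 3 targets with all Notch2IC arrays above all floxed arrays, a pattern of 3.9% of all genes, and none passed. Nrarp, which limits Notch signalling, read 9.26, 8.17 and 8.70 against 8.02, 7.05 and 8.86, a difference of 0.73 (adjusted p = 0.713), and 1.78 against the Notch1fl/fl arrays, where it passed (limma, adjusted p = 0.0446) in the comparison whose count moved so widely. Hes1, the best known intestinal target, differed by -0.08, Hes5 by 0.25, Hey2 by 0.42 and Heyl by 0.42. Under the Dclk driver the differences were 0.98 for Hey1, 0.72 for Dtx1, 0.29 for Ccnd1 and 0.08 for Nrarp.

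**Figure D4:**
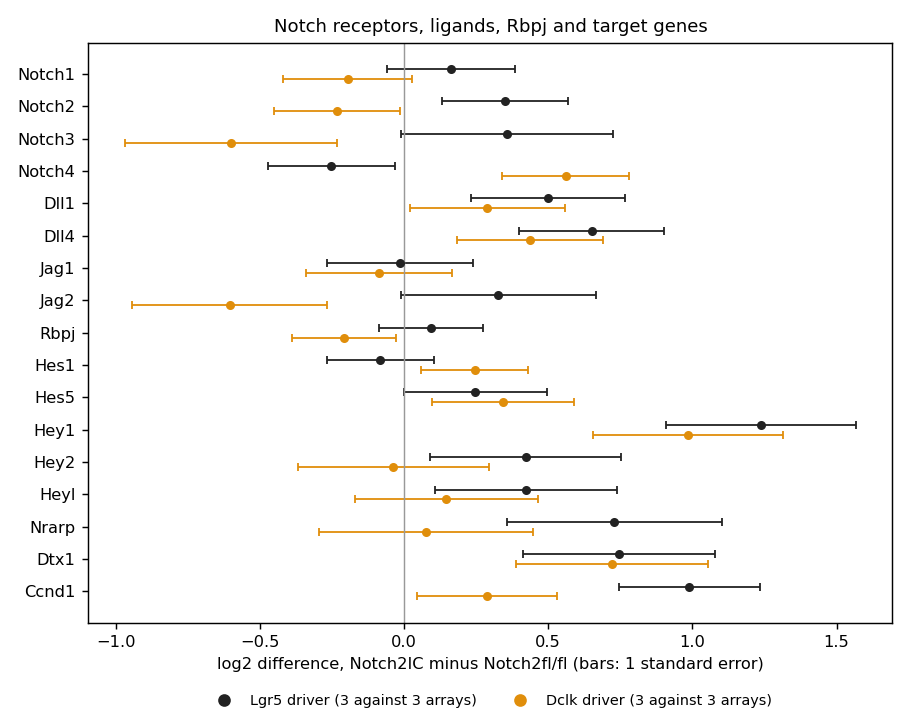
Log2 difference, Notch2IC minus Notch2fl/fl (horizontal axis), with bars of 1 standard error, for Notch receptors, ligands, Rbpj and target genes under the Lgr5 driver (black) and the Dclk driver (orange), 3 against 3 arrays each. Hey1 lies farthest to the right under both drivers (1.24 and 0.98), Hes1 lies near 0, and no gene shown passed the test.

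The stem cell genes did not separate the groups. Lgr5 read 3.96, 5.54 and 5.48 with Notch2IC and 6.02, 6.04 and 4.76 in the floxed arrays, a difference of -0.61 (adjusted p = 0.833), and its second probe set differed by 0.08. Olfm4, another marker of dividing stem cells, read 8.82, 9.52 and 8.91 against 9.16, 10.30 and 6.68, a difference of 0.37. Of the 14 tested genes of the Lgr5 stem cell list 6 read higher and 8 lower, with a median of -0.10. The secretory fate list had 2 higher and 5 lower of 7 (median -0.21) and the goblet cell list 3 higher and 8 lower of 11 (median -0.30), beside the intestinal markers that were high in 1 array of each group. The tuft cell list had 8 higher and 2 lower of 10 (median 0.32), and Dclk1 differed by 0.32 (adjusted p = 0.797). In none of these lists did a gene pass. For proliferation, 9 of the 15 tested cell cycle genes read higher, with a median of 0.04. The replication factors Pcna (0.52, adjusted p = 0.616) and Mcm2 (0.55, adjusted p = 0.689) were among the 4 with all Notch2IC arrays above all floxed arrays (3.9% of all genes), while the proliferation marker Mki67 differed by -0.13.

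Circadian clock genes read lower with Notch2IC as a list, though none passed. In the clock, Arntl, Clock and Npas2 switch on the Per, Cry and Nr1d genes and the output factors Dbp and Tef, which cycle over the day. Of 13 tested clock genes 10 read lower, and 7 had all Notch2IC arrays below all floxed arrays, beside the 4.65% of all genes given above. The median was -0.77, beside -0.01 for all genes and 0.06 under the Dclk driver. Per3 read 6.07, 5.64 and 5.82 with Notch2IC and 7.57, 6.48 and 7.56 in the floxed arrays (difference -1.36, adjusted p = 0.354). Dbp read 6.12, 6.01 and 5.67 against 7.40, 7.21 and 7.60 (difference -1.48, adjusted p = 0.589). Cry2 read 5.00, 5.80 and 6.17 against 6.90, 6.58 and 6.60 (difference -1.04, adjusted p = 0.420). The activators Arntl (0.58) and Npas2 (0.62) read the other way in overlapping groups. The list mean was 6.38, 6.35 and 6.65 with Notch2IC and 7.10, 6.93 and 7.09 in the floxed arrays. With the clock mean as a covariate, an alternative added after the data were seen, 5 genes passed between the groups in place of 11. That mean itself differs between the groups without overlap, so the covariate takes up part of the group difference. The drop therefore does not show how much of the calls goes with the clock genes. What moves the clock genes between these arrays was not tested.

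**Figure D5:**
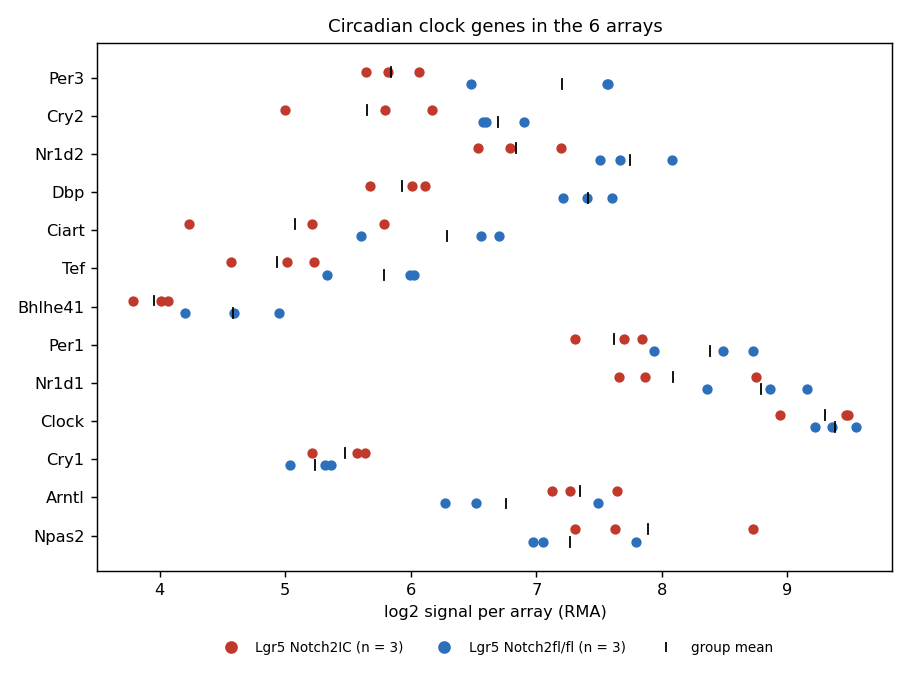
Log2 signal (horizontal axis) of the 13 tested circadian clock genes in the 3 Lgr5 Notch2IC arrays (red) and the 3 Lgr5 Notch2fl/fl arrays (blue), with black ticks for group means. In 7 genes, Per3, Cry2, Nr1d2, Dbp, Tef, Bhlhe41 and Per1, every red point lies left of every blue point, while Arntl and Npas2 have the higher mean with Notch2IC.

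Most inflammatory genes, the hallmark of the interleukin-1 beta model, read higher with Notch2IC without passing the test. Of 23 tested interleukin-1 and NF-kB cytokine genes 22 read higher, 6 with an unadjusted p below 0.05 (508 of all 15242 genes) and 0 past the test, with a median of 0.34 beside -0.01 for all genes. Csf3, the growth factor of neutrophils, read 5.14, 5.36 and 4.15 against 4.23, 3.79 and 3.44 (difference 1.06, adjusted p = 0.564). Tnf read 7.08, 7.49 and 5.54 against 6.18, 5.93 and 5.30 (difference 0.90, adjusted p = 0.589), and the neutrophil attractant Cxcl1 5.30, 5.22 and 3.50 against 3.40, 3.54 and 3.69 (difference 1.13, adjusted p = 0.594). In all 3 genes the groups overlapped through Notch2IC replicate 3. Il1b itself differed by 0.17 (adjusted p = 0.982). Neutrophil markers read higher in 11 of 12 genes (median 0.59) and macrophage markers in 10 of 11 (median 0.46), but the groups overlapped in both list means. The neutrophil mean was 6.74, 7.14 and 5.64 with Notch2IC, replicate 3 being the lowest of all 6 arrays, and 6.08, 6.26 and 5.89 in the floxed arrays. The macrophage mean was 5.50, 6.53 and 5.74 with Notch2IC, with replicate 2 the highest, and 5.74, 5.62 and 5.23 in the floxed arrays. The immediate early and stress list read higher in 11 of 11 (median 0.56), with Junb, a subunit of the transcription factor AP-1, at 0.56 and the heat shock cochaperone Dnajb1 at 0.72 (adjusted p = 0.665 and 0.592).

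Several lists read lower, among them those of smooth muscle and of gastric glands. All 11 smooth muscle genes read lower (median -0.71), with the myosin Myh11 at -1.15 and the actin-binding Tagln at -1.23. The lowest arrays were Notch2IC replicates 1 and 2, whose Myh11 values were 7.03 and 8.03 beside 9.31 to 10.02 in the other 4 arrays. The 9 gastric pit genes all read lower (median -0.43), with Gkn1 at -0.64 and Muc5ac at -0.56. The list mean of Notch2IC replicate 3, 10.10, was the lowest of all 48 arrays, and without the arrays high in intestinal or liver markers the median was -0.079. Of the 10 parietal cell genes 9 read lower (median -0.49), with Atp4a at -0.69. The groups overlapped here, with parietal list means of 7.22, 8.14 and 7.01 with Notch2IC and 7.79, 7.74 and 8.06 in the floxed arrays. Atp4a read 12.23 in Notch2IC replicate 2, within the floxed range of 11.90 to 12.26. Pga5, the precursor of pepsin, differed by -1.64 (adjusted p = 0.589). Paneth cell genes split, with 4 higher and 3 lower of 7 (median 0.58). Among them Defa22 differed by -3.86 (limma, adjusted p = 0.540). The matrix protease Mmp7 read 7.09, 7.16 and 7.25 against 5.75, 6.48 and 3.66, a difference of 1.87 (limma, adjusted p = 0.589). Adipocyte genes read lower in 5 of 7 (median -0.71), glucocorticoid response genes in 8 of 10 (median -0.47), MHC class II genes in 7 of 7 (median -0.19) and B and plasma cell genes in 7 of 8 (median -0.31). No gene of these lists passed.

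Leaving out the arrays of the Notch lines with high intestinal or liver markers left 2 Notch2IC and 2 floxed arrays, and 90 genes passed, 61 higher and 29 lower. Xist was no longer balanced, at 11.67 and 11.56 in the Notch2IC arrays left and 4.18 and 11.95 in the floxed ones. The median of the sex-linked list was -2.58 in this fit and -0.12 with all arrays. The 90 include all 11 genes above, and each of the 90 had the same sign with all arrays, where 70 had an unadjusted p below 0.05. The arrays left are also part of the main fit, so this agreement was largely built in. Hey1 passed, with a difference of 1.71 (limma, adjusted p = 0.0437), as did Ccnd1, with 1.29 (limma, adjusted p = 0.0270). In the cytokine list 2 of 23 genes rose, beside 61 of all 15242, Tnf and the neutrophil attractant Cxcl5, and the clock gene Cry2 fell. Gp2 and Gabrp passed too, with 5.15 and 3.66 (limma, adjusted p = 0.0187 and 0.0385). Among the 26 suprabasal squamous genes 6 fell and 0 rose, beside 29 of all 15242 genes that fell in this fit. Of these the keratin Krt1 fell by 4.23, the cornified envelope protein Lor by 4.36 and the desmosomal cadherin Dsc1 by 4.41 (limma, adjusted p = 0.0287, 0.0359 and 0.0437). With all 6 arrays these 3 genes spread widely within the Notch2IC group. Krt1 read 10.28, 6.18 and 12.78 with Notch2IC and 12.28, 11.23 and 12.64 in the floxed arrays, so the 2 Notch2IC arrays left in this fit, at 10.28 and 6.18, were both below the floxed arrays and far apart. With 2 arrays a group, the spread was pooled over all groups of the fit.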

How the data were processed

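Whole-tissue RNA was hybridised to 1-colour Affymetrix arrays, 48 in all, 16 groups of 3. The deposited values are log2 signals per probe set; the submitters' processing notes name RMA and the Affymetrix Expression Console, with no version used here, and the array's build is not given in the sources used here. RMA adjusts background and puts all arrays on 1 distribution, so values show changes relative to each array's whole. Array medians ran from 4.03 to 4.27, and the number of arrays limits precision. Of 34390 probe sets 23521 had 1 gene symbol, 1814 several and 9055 none in the platform annotation. RefSeq's table (GRCm38.p6) held 23328 of the 23521 and changed 0 names. For each of 22180 symbols the probe set with the highest mean over all arrays was used, and 15242 symbols entered the tests, each exceeding the median of its array on 3 or more arrays. The 10869 probe sets with several symbols or none were fitted in the same way, and 0 passed.

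Groups came from the genotype labels. A model with 1 mean per group used all 48 arrays (limma 3.58.1, R 4.3.3, lmFit and eBayes, 32 residual degrees of freedom), with p-values adjusted by Benjamini-Hochberg over all tested genes and a threshold of 0.05. A driver difference is the Lgr5 difference minus the Dclk difference. No label says that the arrays are separate animals or cultures, so p-values measure only the spread between these samples. In the main fit that spread is pooled over all 16 groups. Replicate numbers follow accession order and pair nothing. The gene groups and lists were chosen with earlier results of these data known. Genes were named by rule: Notch receptors, ligands, targets and set markers; the 10 largest calls each way; the 5 smallest p-values in a direction with fewer than 5 calls; up to 4 genes per list; and the 5 smallest p-values each way of the driver difference. The script was tested on simulated data. Alternatives varied the filter, probe choice, arrays fitted, covariates, weights and scaling, and left out arrays.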

Additional observations from a re-analysis of the deposited data

How the results depend on the processing

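No paired analysis was possible because the labels give no replicate number or pairing. The 11 calls between Lgr5 Notch2IC and Lgr5 Notch2fl/fl became 7 with a filter at log2 6, 0 with the 6 arrays alone, 1 with the 18 arrays of the Notch lines, 1 with age at tamoxifen as a covariate, 4 with array weights, 90 without the arrays high in intestinal or liver markers and 5 with the clock mean as a covariate. Leaving out 1 array gave 5 to 45. The driver difference had 0 calls in every fit run, and 0 to 0 without single arrays. The 5 Dclk calls became 3 with the stricter filter, 3 with the mean of all probe sets, 1 with the 18 arrays, 0 with age at tamoxifen and 20 with weights, and 0 to 7 without single arrays. The 14 calls against Lgr5 Notch1fl/fl became 0 with no filter, with the 18 arrays, with age at tamoxifen, with the title suffix as a term, with weights and with cyclic loess, 2 with age at the endpoint, 5 with Xist, 22 with the smooth muscle mean and 2 with the clock mean, and 1 to 536 without single arrays. The cytokine list median moved to 0.87 and the gastric pit median to -0.079 without the high-marker arrays, and the Notch target median to 0.35 with the clock mean. Single arrays left out gave -0.88 to -0.65 for the clock median, -0.73 to -0.14 for gastric pit, 0.30 to 0.77 for cytokines, 0.32 to 0.58 for immediate early genes, 0.17 to 0.33 for Notch targets and -1.43 to -0.22 for smooth muscle. Some small differences turned sign. Jag1 was 0.0018 with age at tamoxifen, 0.027 with age at the endpoint and -0.25 to 0.20 without single arrays. Without the high-marker arrays Notch1 was -0.11, Notch3 -0.21, Jag2 -0.0002 and Hes1 0.11. Olfm4 was -0.078 with weights and -0.65 to 1.16 without single arrays. Il1b was -0.12 with the smooth muscle mean, -0.61 with the clock mean and -0.11 to 0.56 without single arrays, where Rbpj ran from -0.15 to 0.38, Hes1 from -0.33 to 0.24 and Notch1 from -0.066 to 0.31. The smooth muscle and clock covariates were chosen after seeing the data. The cause of these shifts was not tested, except that fits on fewer arrays have fewer degrees of freedom. The 11 called genes kept their direction in every alternative that tested them. Tmod4, Alox12e, Kcnh5 and Gpr31b were not tested with the filter at log2 6.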
